A study of Mus musculus with 6 samples.

Results

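CpG methylation was described here at 10 genes that control or mark myeloid cells and microglia: Spi1, Csf1r, Irf8, Runx1, Runx3, Cx3cr1, Tgfb1, Tmem119, Alox5 and Inpp5d. Their sites were all covered CpG cytosines between 1 kb upstream of the gene and its end in the GENCODE M21 record, read in the direction of transcription, and coordinates are those of GRCm38 (mm10). This gave 805 of the 890041 sites measured, and 0 of the 10 genes had fewer than 3 sites. The measurements came from reduced representation bisulfite sequencing (RRBS), in which DNA is cut at CCGG, so that CpG-rich sequence is enriched, and bisulfite converts unmethylated cytosines. The tissue was micro-dissected dentate gyrus, the part of the hippocampus in which new granule neurons form in adult life, from female C57BL/6JRj mice aged 4.5 months. A total of 3 mice had lived for 3 months in standard cages (STD) and 3 in an enriched environment (ENR). The latter was a large cage with objects that are often rearranged, and each mouse gave 1 library. In the study, ENR mice lived together in larger groups than STD mice, and the cage of each mouse is not known here. Housing thus cannot be told apart from cage or group size. The labels name no transgene, mutation or agent. Each value is the percent of reads at a cytosine that were methylated, and both strands of a CpG were separate sites. The number of reads behind a value is unknown beyond a minimum of 10, so no interval that needs depth is given.

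Microglia are the resident macrophages of the brain and arise from yolk sac progenitors. The transcription factors PU.1 (encoded by Spi1), Irf8 and Runx1 direct their formation, the receptor Csf1r keeps them alive, Cx3cr1 receives the neuronal chemokine fractalkine, and Tgfb1 is the ligand that maintains their mature state. Genes that are active in only one cell lineage are often methylated in other lineages outside CpG islands, whereas CpG-island starts are mostly unmethylated in all of them. Microglia are a minority of the cells in dentate gyrus tissue, so these percentages mostly report on neurons and other glia, and a different share of cells cannot be told apart from a different methylation level per cell.

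The following stretches, on which the results turn, come from the GRCm38 (mm10) reference. They were chosen as the 1 Spi1 stretch of at least 3 sites, whose groups overlapped, unmethylated sequence just upstream of a start (Irf8), a methylated exon (Cx3cr1), and stretches of Runx1, Runx3 and Tmem119 whose STD and ENR libraries did not overlap. They are given on the plus strand, with each CpG that has a covered cytosine in capitals. The stretch labelled as the inner coding exon of Runx1 also holds sites in a non-coding exon. For Alox5, the bases just upstream of the gene are given on the strand of the gene, with all CpGs in capitals, none of which was covered.
Spi1 intron (chr2:91101954-91101985): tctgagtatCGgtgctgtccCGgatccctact
Irf8 upstream of the start (chr8:120735992-120736212): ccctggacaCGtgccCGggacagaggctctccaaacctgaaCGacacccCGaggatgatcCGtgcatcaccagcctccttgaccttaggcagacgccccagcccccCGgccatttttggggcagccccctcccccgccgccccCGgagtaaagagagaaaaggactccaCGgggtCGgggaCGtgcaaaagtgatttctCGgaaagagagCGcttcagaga
Runx1 intron near the distal start (chr16:92825080-92825156): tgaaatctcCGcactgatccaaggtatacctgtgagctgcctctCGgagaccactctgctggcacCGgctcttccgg
Runx1 inner coding exon (chr16:92688927-92689120): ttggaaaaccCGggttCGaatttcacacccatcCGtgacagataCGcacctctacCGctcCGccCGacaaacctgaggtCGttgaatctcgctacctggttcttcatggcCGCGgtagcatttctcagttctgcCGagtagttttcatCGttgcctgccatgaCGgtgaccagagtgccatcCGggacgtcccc
Runx1 last coding exon (chr16:92605773-92606012): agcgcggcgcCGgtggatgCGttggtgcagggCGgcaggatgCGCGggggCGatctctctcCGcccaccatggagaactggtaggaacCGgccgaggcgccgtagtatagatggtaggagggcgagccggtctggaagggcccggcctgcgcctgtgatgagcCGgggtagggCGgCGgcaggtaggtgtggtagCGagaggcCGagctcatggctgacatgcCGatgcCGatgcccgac
Runx3 intron (chr4:135150605-135150770): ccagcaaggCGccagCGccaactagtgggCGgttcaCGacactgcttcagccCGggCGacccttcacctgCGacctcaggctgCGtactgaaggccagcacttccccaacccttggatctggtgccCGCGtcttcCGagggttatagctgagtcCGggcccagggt
Cx3cr1 coding exon (chr9:120051374-120051454): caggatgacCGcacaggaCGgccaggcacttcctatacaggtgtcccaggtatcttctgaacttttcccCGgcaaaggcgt
Tmem119 intron (chr5:113798392-113798618): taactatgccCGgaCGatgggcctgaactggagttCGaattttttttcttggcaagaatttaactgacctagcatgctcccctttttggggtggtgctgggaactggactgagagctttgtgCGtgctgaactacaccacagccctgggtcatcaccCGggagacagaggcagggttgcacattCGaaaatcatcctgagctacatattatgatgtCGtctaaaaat
Alox5 upstream (chr6:116461179-116461428): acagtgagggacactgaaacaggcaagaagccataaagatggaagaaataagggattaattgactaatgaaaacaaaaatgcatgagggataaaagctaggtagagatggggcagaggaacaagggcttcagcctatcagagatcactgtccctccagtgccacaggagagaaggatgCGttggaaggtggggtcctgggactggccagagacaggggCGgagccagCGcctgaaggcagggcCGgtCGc

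The libraries were alike across these 805 sites, with Pearson's r between 0.856 and 0.940 for the pairs. The sites share libraries and neighbouring reads, so r is a description only. The libraries numbered 3 were the lowest of their groups over all 890041 sites, with means of 24.3%, 24.1% and 22.5% in STD and 24.2%, 23.9% and 21.3% in ENR. The gap was wider at intermediate sites. Over the 115 sites of the 10 genes that averaged between 20% and 80% in the other libraries, the means were 54.7%, 52.6% and 44.2% in STD and 53.6%, 56.3% and 37.1% in ENR. Choosing sites by the other libraries can itself widen this gap, and its part was not tested. The library numbered 3 was the lowest ENR library at 10 of the 10 genes and the lowest STD library at 9. Replicate numbers are not known to pair mice, and a value without a library is given beside the gene and stretch differences that it moves by over 1.5 times.

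Methylation in the 10 genes followed position and sequence. Within 1 kb of a transcription start of their own gene, 317 sites of 5 genes had a mean of 3.59%, and 92.4% of them were below 10%. In introns farther from those starts, 399 sites had a mean of 30.9% and a median of 7.14%, and 53.6% of them were below 10%. Of these, 116 sites in the Cx3cr1 and Runx3 records lay within 1 kb of a start of another annotated gene, and the 283 sites without any start so near had a mean of 35.9% and a median of 21.4%. The 70 coding exon sites had a mean of 37.5%. Sites in CpG-rich sequence, meaning that G and C made up at least 50% of the 201 bases around a site and CpG reached at least 0.6 times its frequency expected from them, had a median of 0.883% (424 sites). The other 381 sites had a median of 18.7%. Across sites, the level and the CpG ratio had a Spearman's rho of -0.557 (805 sites, which share reads and local base composition).

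To investigate whether housing was accompanied by a different level of these genes, the mean over the sites of each gene was compared between groups. At 8 of the 10 genes the ENR mean was below the STD mean, and the median difference over the 10 genes was -1.17 percentage points. This rested on ENR replicate 3, without which 5 of the 10 were lower, with a median of -0.00892, and the median was -0.646 without STD replicate 1. The median was -1.89 without ENR replicate 1, -1.82 without ENR replicate 2 and -1.97 without STD replicate 3, each with 9 of the 10 lower. Over all 22955 genes with at least 3 sites, 57.6% were lower in ENR and the median difference was -0.192 percentage points. Quantile normalization of the libraries reversed the direction of 0 of the 10 genes and gave a median of -0.632. None of the 10 genes passed the test with limma at an adjusted p under 0.05, as 0 of all genes did (0.0% of 22934 tested), and at an unadjusted p under 0.05 there was 1 of the 10, Alox5. Across all genes 3.86% had such a p. The groups did not overlap at 1 of the 10 genes, again Alox5, and at 8.46% of all genes. The exact permutation test of 3 against 3 libraries cannot give a p under 0.1. It gives 0.1 wherever the groups do not overlap, so that it is no further test of stretches named for that reason.

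**Figure D1:**
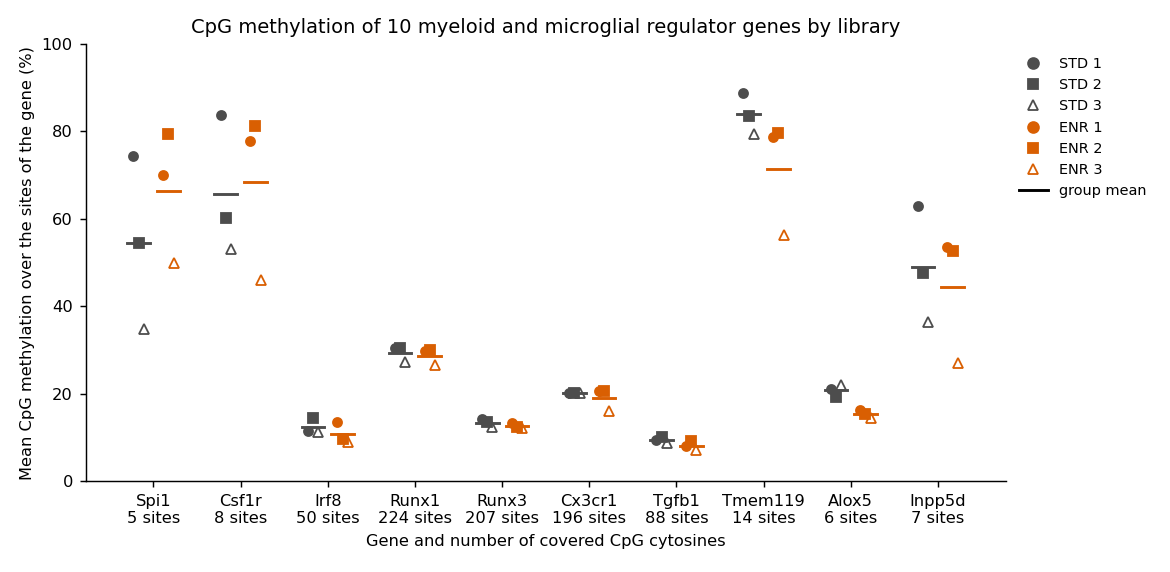
Mean CpG methylation (%, y axis) over the covered sites of each of the 10 genes (x axis) in each library. Circles, squares and triangles are replicates 1, 2 and 3, grey is STD, orange is ENR, and short lines are group means of 3 libraries. Open triangles, the libraries numbered 3, lie lowest in most groups, and only at Alox5 do the grey and orange points not overlap.

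Of the transcription factors, Spi1 (chr2:91082390-91115756, plus strand) encodes PU.1, which opens myeloid enhancers. It had 5 covered sites, all intronic and none within 1 kb of a transcription start. Its mean was 74.5%, 54.4% and 34.9% in STD and 69.9%, 79.5% and 50.004% in ENR. The groups overlapped widely, and ENR was 11.9 percentage points higher, less than the spread within either group (54.6% ± 19.8 and 66.5% ± 15.03, SD, n = 3 each, exact permutation p = 0.5). Its 3 sites 5.19 kb downstream of the nearest start, the stretch printed above, had 89.2%, 71.3% and 26.2% in STD and 75.4%, 92.3% and 79.6% in ENR. The low STD value belonged to STD replicate 3. The Spi1 difference was 2.03 percentage points without that library and 5.39 without ENR replicate 2, but 20.1 without ENR replicate 3 and 21.8 without STD replicate 1.

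Irf8 (chr8:120736358-120756694, plus strand), the partner of PU.1 at many myeloid genes, had 50 sites. Its mean was 11.5%, 14.5% and 11.2% in STD and 13.5%, 9.77% and 8.95% in ENR. The groups overlapped, with a difference of -1.65 percentage points (12.4% ± 1.81 and 10.7% ± 2.41, SD, n = 3 each, exact permutation p = 0.4). It was -0.607 without STD replicate 2, -0.758 without ENR replicate 3 and -3.02 without ENR replicate 1. The 37 sites within 1 kb of the first starts of Irf8 averaged between 1.999% and 6.40% in the libraries. Single sites lay higher, up to a mean of 30.2% over the 6 libraries. The sequence printed above is the upstream part of this region, which ends before the first start and holds 16 of the 37 sites. A second covered stretch lies 15.9 kb into the gene, in a non-coding exon at an alternative start, and was intermediate. Its 6 sites averaged 21.9%, 25.9% and 30.6% in STD and 18.01%, 20.9% and 17.9% in ENR, without overlap. The difference was -7.18 percentage points (26.1% ± 4.39 and 18.96% ± 1.71, SD, n = 3 each, exact permutation p = 0.1, the smallest possible), and without both libraries numbered 3 it was -4.42.

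Runx1 (chr16:92601466-92826149, minus strand), required for the first blood progenitors and active in the microglial lineage, was the most covered of the genes, with 224 sites. Its mean was 30.5%, 30.4% and 27.3% in STD and 29.8%, 30.0% and 26.5% in ENR, a difference of -0.651 percentage points with overlapping groups (29.4% ± 1.81 and 28.8% ± 1.95, SD, n = 3 each, exact permutation p = 0.5). Every library left out moved this difference, to 0.476 without ENR replicate 3, to -1.17 and -1.26 without ENR replicates 1 and 2, and to -0.0889, -0.167 and -1.70 without STD replicates 1, 2 and 3. This mean combined stretches of very different level. The proximal start had 47 sites with 0.519%, 1.74% and 1.84% in STD and 0.975%, 2.77% and 3.37% in ENR. The lowest stretch away from a start lay 1.31 kb upstream of it, with 30 sites and a mean over the 6 libraries of 0.984%. The highest was inner exon sequence, printed above, coding at some sites and non-coding at others. Its 14 sites had 98.1%, 98.0% and 99.0% in STD and 97.8%, 96.5% and 95.5% in ENR. Its groups did not overlap, although ENR lay only -1.72 percentage points from STD, and -0.864 without both libraries numbered 3.

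At the distal start of Runx1, from which the blood-type isoform is transcribed, 3 intronic sites lay 632 to 688 bases downstream of the nearest start. Their mean was 18.9%, 18.2% and 26.3% in STD and 38.7%, 33.3% and 38.7% in ENR, so that every ENR library was above every STD library. The difference was 15.8 percentage points (21.1% ± 4.50 and 36.9% ± 3.10, SD, n = 3 each, exact permutation p = 0.1), and it was 17.5 without both libraries numbered 3. It came mostly from 1 cytosine, at position 92825090 of chromosome 16, with 32.7%, 54.5% and 78.9% in STD and 96.7%, 100% and 81.1% in ENR. The other 2 cytosines were mostly unmethylated, with means over the 6 libraries of 8.70% and 4.39%. In the 1 kb tile that holds these sites, the unadjusted limma p was 0.0431 and the adjusted p was 1.

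The last coding exon of Runx1 went the other way. Its 21 sites, printed above, had 12.0%, 9.73% and 7.54% in STD and 6.28%, 4.36% and 4.28% in ENR. Every ENR library was below every STD library, with a difference of -4.79 percentage points (9.76% ± 2.24 and 4.97% ± 1.14, SD, n = 3 each, exact permutation p = 0.1), and -5.55 without both libraries numbered 3. The tile of 20 of these sites had an unadjusted limma p of 0.0165 and an adjusted p of 1. An intronic stretch of 7 sites 78.4 kb into the gene was almost fully methylated in STD, at 98.6%, 97.9% and 99.4%, and was 93.8%, 94.8% and 86.5% in ENR (unadjusted limma p of its tile = 0.0358, adjusted p = 1). The ENR difference there was -6.98 percentage points, -4.38 without ENR replicate 3 and -4.01 without both libraries numbered 3. A further 4 intronic sites 42.5 kb into the gene were higher in ENR, with 48.5%, 51.6% and 49.8% in STD and 59.5%, 67.2% and 60.8% in ENR. Another 4 sites at 16.7 kb were lower, with 12.9% ± 2.03 in STD and 9.39% ± 1.09 in ENR (SD, n = 3 each), a difference of -3.53 percentage points that was -2.16 without both libraries numbered 3. Stretches, here runs of at least 3 sites at most 200 bases apart, thus did not overlap at 6 of 20 in Runx1, with 2 higher and 4 lower in ENR. In the other 9 genes they did not overlap at 5 of 42, and over the whole table at 8.78%. The difference between Runx1 and the others was not tested.

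**Figure D2:**
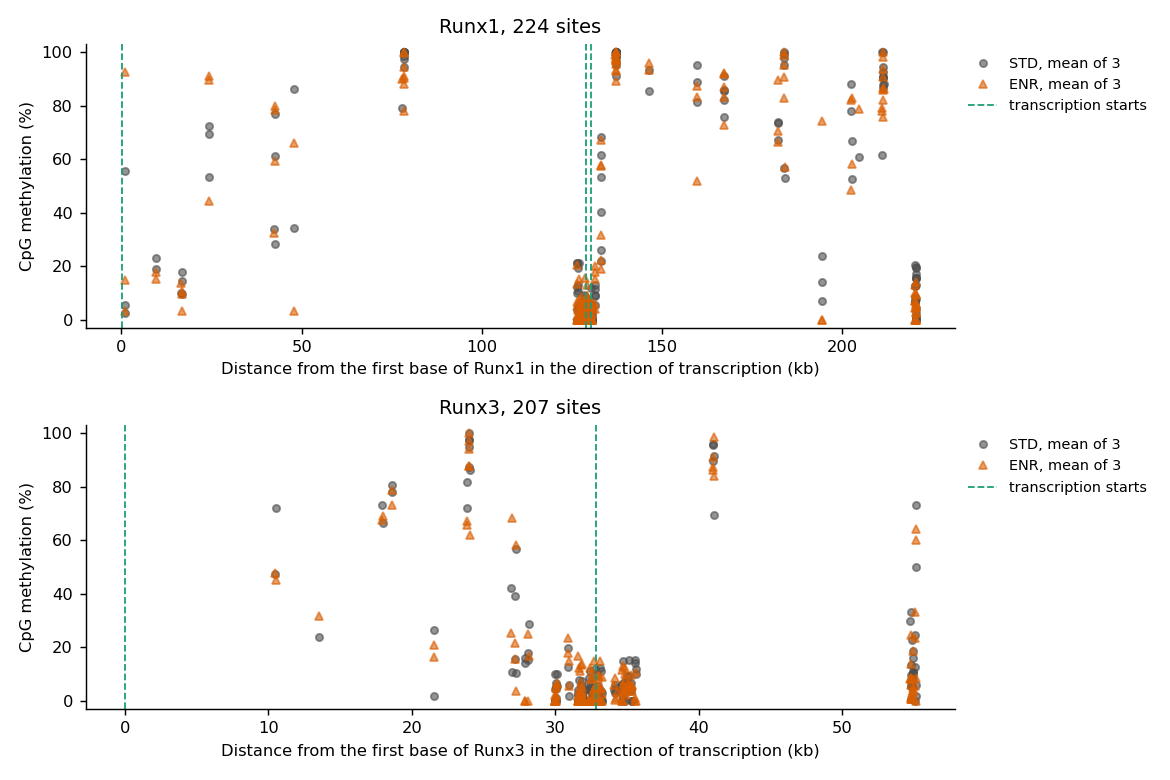
CpG methylation (%, y axis) of each covered site of Runx1 (224 sites) and Runx3 (207 sites) by its distance from the first base of the gene in the direction of transcription (kb, x axis). Grey circles are means of the 3 STD libraries, orange triangles means of the 3 ENR libraries, and dashed lines mark transcription starts. Sites crowd near 0% at the proximal starts and lie mostly above 60% in the introns and exons between them and the 3′ end of Runx1, where the last coding exon is low again.

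Runx3 (chr4:135120652-135177990, plus strand), a relative of Runx1 that binds the same motif and acts in T cells and dendritic cells, had 207 sites. Its mean was 14.2%, 13.6% and 12.5% in STD and 13.4%, 12.5% and 12.3% in ENR. The groups overlapped and lay -0.710 percentage points apart (13.4% ± 0.892 and 12.7% ± 0.573, SD, n = 3 each, exact permutation p = 0.3). The difference was -1.19 without STD replicate 3 and -0.306 without STD replicate 1. Its proximal starts, with 114 sites, had between 2.51% and 2.78% in STD and between 2.62% and 4.45% in ENR, while its distal start had 0 covered sites. The highest stretch, 5 intronic sites at 41.0 kb, averaged 89.0% over the 6 libraries. The lowest away from a start, 15 sites at 30.0 kb printed above, had 3.22%, 2.90% and 3.37% in STD and 1.61%, 1.87% and 2.17% in ENR. These groups did not overlap, at a difference of -1.28 percentage points (exact permutation p = 0.1, as wherever groups do not overlap). A tile of 5 sites 3′ of the proximal starts had 7.90%, 16.2% and 6.66% in STD and 3.99%, 1.28% and 5.12% in ENR, with an unadjusted limma p of 0.0345 and an adjusted p of 1. The difference of -6.79 percentage points was -3.82 without STD replicate 2.

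Of the receptors, Csf1r (chr18:61100598-61132149, plus strand), the receptor for the growth factors that keep microglia alive, had 8 sites, 7 of them in an intron of its longest transcript, 1.20 to 1.30 kb upstream of the main start. The last one lay in an untranslated exon that overlaps the neighbouring gene Hmgxb3. By the RefSeq record, whose bounds are narrower, Csf1r held 0 sites. Its mean was 83.7%, 60.2% and 53.2% in STD and 77.9%, 81.3% and 46.1% in ENR. The spread within each group was larger than the difference of 2.74 percentage points (65.7% ± 15.9 and 68.4% ± 19.4, SD, n = 3 each, exact permutation p = 1). Its sign turned on single libraries, with -3.68 without ENR replicate 2, -1.99 without ENR replicate 1 and -3.51 without STD replicate 3, whereas it was 13.9 without ENR replicate 3, 11.7 without STD replicate 1 and 0.0135 without STD replicate 2.

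Cx3cr1 (chr9:119901616-120069879, minus strand), the fractalkine receptor of microglia, illustrates how much a gene record decides. Its GENCODE record of 168264 bases includes a long transcript that runs across neighbouring genes, so that 150 of its 196 sites lay in other genes, among them Csrnp1, Wdr48 and Ttc21a. The RefSeq gene of 19614 bases held only 3 sites. Over the whole record the mean was 20.2%, 20.1% and 20.1% in STD and 20.6%, 20.7% and 16.0% in ENR. The difference of -1.02 percentage points (20.1% ± 0.0568 and 19.1% ± 2.69, SD, n = 3 each, exact permutation p = 1) rested on ENR replicate 3, without which it was 0.531, and was -1.78 and -1.81 without ENR replicates 1 and 2. The 3 sites of Cx3cr1 itself lie in its coding exon, printed above, and were almost fully methylated, with 100%, 93.5% and 100% in STD and 98.1%, 100% and 93.2% in ENR. The groups overlapped there. Neither start of Cx3cr1 had a covered site within 1 kb. The lowest stretch of the record, 23 sites in the island of Csrnp1 and 1700019L13Rik, had a mean of 1.09% and lies at the starts of those genes. The single site with the lowest p of this record, at position 119943967 of chromosome 9 in Ttc21a, had 89.4%, 81.8% and 100% in STD and 31.8%, 70% and 15.6% in ENR. Its unadjusted limma p was 0.00978 and the adjusted p was 0.852.

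**Figure D3:**
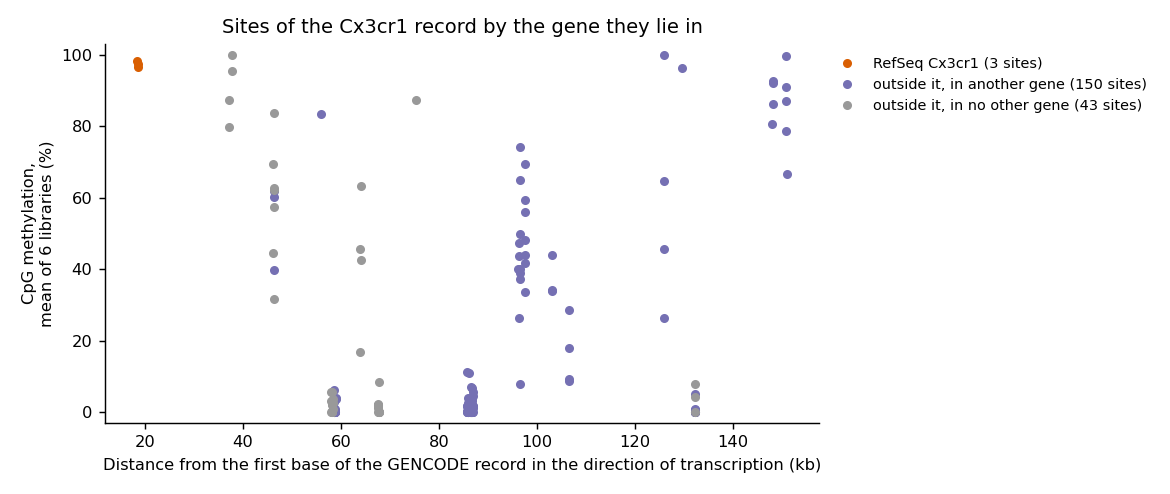
CpG methylation (%, mean of 6 libraries, y axis) of the 196 sites in the GENCODE record of Cx3cr1 by distance from its first base in the direction of transcription (kb, x axis). Orange points are the 3 sites in the RefSeq gene, purple points lie outside it in another gene, and grey points lie outside it in no other gene. The orange points are all above 96%, whereas most of the other points belong to neighbouring genes and many lie near 0%.

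Tgfb1 (chr7:25687002-25705077, plus strand), the ligand, had 88 sites, 78 of them within 1 kb of a transcription start. Its mean was 9.39%, 10.2% and 8.72% in STD and 8.13%, 9.15% and 7.08% in ENR. The groups overlapped, with a difference of -1.32 percentage points (9.44% ± 0.748 and 8.12% ± 1.03, SD, n = 3 each, exact permutation p = 0.2), and -0.803 without ENR replicate 3. The main start, with 19 sites, was low in every library, between 1.71% and 4.54%. The highest stretch was 5 sites in exon sequence 9.97 kb into the gene, with 75.0%, 89.2% and 82.8% in STD and 79.9%, 73.3% and 47.2% in ENR. The lowest away from a start, 3 sites at the 3′ end, averaged 6.14% over the 6 libraries.

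Among the remaining genes, Tmem119 (chr5:113793729-113800516, minus strand), a surface protein used as a marker of microglia, had 14 sites, 6 in its coding exon and 8 in an intron about 2.01 kb from the first base. None lay within 1 kb of a start. Its mean was 88.9%, 83.5% and 79.5% in STD and 78.6%, 79.6% and 56.3% in ENR. The STD libraries were higher on average, but the lowest of them lay just below the highest ENR library. The difference was -12.4 percentage points (83.9% ± 4.71 and 71.5% ± 13.2, SD, n = 3 each, exact permutation p = 0.2, unadjusted limma p = 0.115), and -4.82 without ENR replicate 3. In the intron stretch, printed above, the groups did not overlap, with 89.5%, 85.9% and 89.7% in STD and 80.7%, 77.0% and 58.3% in ENR. The difference there was -16.4 percentage points (88.4% ± 2.17 and 72.0% ± 12.0, SD, n = 3 each, exact permutation p = 0.1). It was -9.51 without ENR replicate 3 and -8.83 without both libraries numbered 3, and the tile had an unadjusted limma p of 0.0317 and an adjusted p of 1. Its first site, at position 113798402 of chromosome 5, had 91.3%, 100% and 100% in STD and 76.2%, 69.6% and 40% in ENR. Its unadjusted limma p was 0.00855 and the adjusted p was 0.852. The coding exon stretch overlapped between groups, with 78.1% ± 11.3 in STD and 70.9% ± 15.4 in ENR (SD, n = 3 each).

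Alox5 (chr6:116410077-116461178, minus strand), the lipoxygenase that starts leukotriene synthesis in myeloid cells, had 6 sites. Its mean was 21.01%, 19.4% and 22.0% in STD and 16.3%, 15.4% and 14.6% in ENR. Every ENR library was below every STD library, with a difference of -5.36 percentage points (20.8% ± 1.32 and 15.4% ± 0.840, SD, n = 3 each, exact permutation p = 0.1, unadjusted limma p = 0.00523, adjusted p = 1.0). The difference arose in the first exon, where 5 untranslated sites lay within 1 kb of the start. These averaged 6.48%, 4.86% and 6.36% in STD and 0%, 0% and 0% in ENR. Of the 15 values there, 4 were above 0 in STD and 0 were in ENR. The values above 0 were 20.3% and 31.8% at 1 cytosine in STD replicates 1 and 3, 24.3% at another in STD replicate 2 and 12.1% at yet another in STD replicate 1. No single cytosine was thus methylated in all 3 STD libraries, and the even STD means joined different sites. The difference of -5.90 percentage points had the lowest limma p of the 19492 promoters tested (unadjusted p = 3.18e-05), with a promoter being the sites within 1 kb of any start, but did not pass adjustment (adjusted p = 0.619). Its tile ranked 3 of 72222 tiles, where the unadjusted limma p was 6.73e-05 and the adjusted p was 1. The sixth site, intronic, was highly methylated in all libraries, with 93.7%, 91.9% and 100% in STD and 97.6%, 92.6% and 87.5% in ENR. With so low a level and an unknown number of reads, a few methylated reads more or less would change these percentages.

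**Figure D4:**
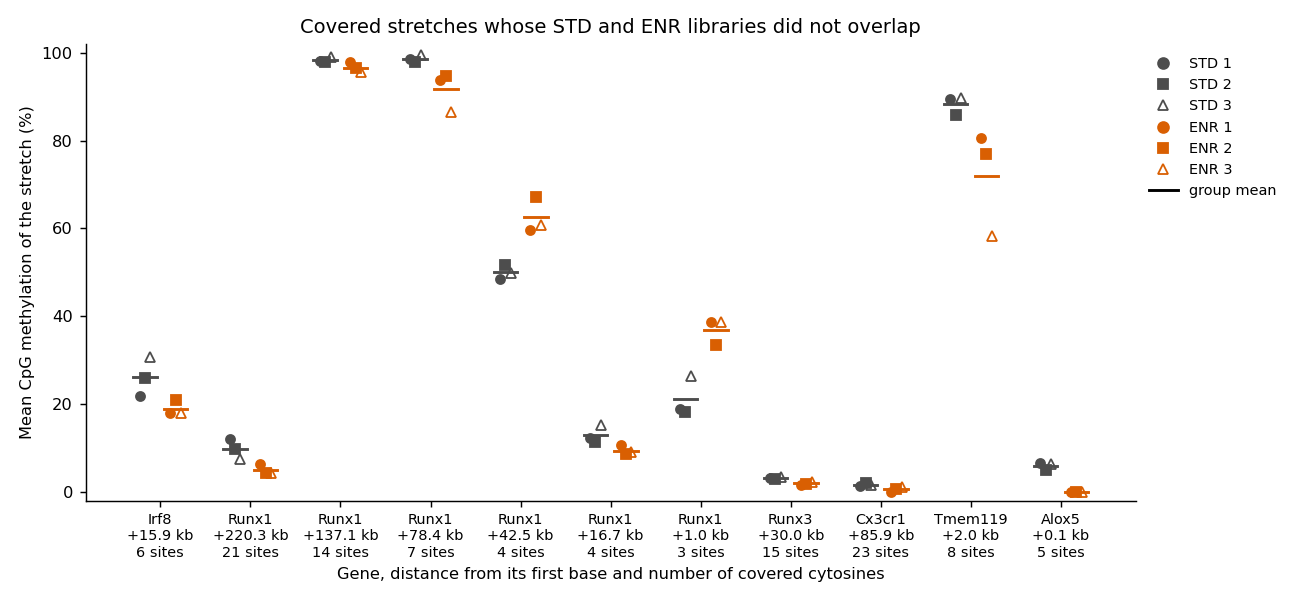
Mean CpG methylation (%, y axis) of the 11 covered stretches of at least 3 sites whose STD and ENR libraries did not overlap, each named by gene, distance from its first base (kb) and number of sites (x axis). Circles, squares and triangles are replicates 1, 2 and 3, grey is STD, orange is ENR, and short lines are group means. The Runx1 stretches at +42.5 and +1.0 kb are higher in ENR and the other 9 are lower, and the 5 Alox5 sites are at 0% in every ENR library.

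Inpp5d (chr1:87620312-87720507, plus strand), a phosphatase that restrains signalling from immune receptors, had 7 sites, all intronic and none near a start. Its mean was 63.0%, 47.7% and 36.3% in STD and 53.6%, 52.7% and 27.1% in ENR. The groups overlapped, with a difference of -4.54 percentage points (49.0% ± 13.4 and 44.5% ± 15.1, SD, n = 3 each, exact permutation p = 0.7), which turned to 4.15 without ENR replicate 3 and to 2.45 without STD replicate 1. It was -9.09 and -8.68 without ENR replicates 1 and 2, and -10.9 without STD replicate 3. A pair of neighbouring sites 32.4 kb into the gene separated the libraries numbered 3 from the others, with 90.2%, 68.9% and 13.9% in STD and 70.8%, 74.5% and 9.96% in ENR. Another pair, at 51.0 kb, was low, with a mean of 9.21%.

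At the promoters that were covered, those of Irf8, Runx1, Runx3, Tgfb1 and Alox5, mean levels lay between 2.43% and 7.33%, against a median of 2.29% over all promoters. Groups did not overlap at 1 of these 5 promoters, Alox5, and at 9.46% of all 19525 promoters. The same promoter was the 1 with an unadjusted limma p under 0.05, against 4.44% of all. The remaining genes, Spi1, Csf1r, Cx3cr1, Tmem119 and Inpp5d, had 0 sites within 1 kb of a start, so the methylation of their promoters was not measured here.

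RefSeq promoter windows, from 250 bases before to 50 bases after a start, were given for 7 of the 10 genes. CCGG, the sequence cut in RRBS, occurred in 52.8% of all 32851 windows. It was found 3 times at the first Irf8 start and 0 times in a second Irf8 window, 4 times at the proximal Runx1 start, 5 times at the proximal Runx3 start, 5 times in the Tgfb1 window and once in the Alox5 window. In the windows of Inpp5d, Cx3cr1, the distal Runx1 start and the distal Runx3 start it was found 0 times. GAGGAA, the core bound by PU.1, was searched on both strands and was in 28.3% of all windows, and among these genes in those of Inpp5d, Alox5 and the proximal Runx1 start. TGTGGT, the core bound by RUNX proteins, was in 16.8% of all windows, and among these genes in those of the distal Runx1 start, the distal Runx3 start and Cx3cr1. These matches describe letters only.

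Single sites were examined next. Group means differed by over 25 percentage points at 24 of the 805 sites (2.98%), against 1.94% of all 890041 sites. Of the 24, 14 were lower in ENR (1.74% of the 805, against 1.23% of all) and 10 were higher (1.24%, against 0.706%). This split turned on single libraries, with 12 lower and 20 higher without ENR replicate 3, 16 and 16 without STD replicate 1, 23 and 9 without STD replicate 3, 28 and 10 without ENR replicate 1, and 25 and 7 without ENR replicate 2. They were spread over Cx3cr1 (10 sites), Runx1 (7), Runx3 (3), Tmem119 (2), Spi1 (1) and Tgfb1 (1), and all 10 sites of the Cx3cr1 record lay outside the RefSeq gene. Without the sites outside RefSeq Cx3cr1, 14 of 612 sites remained over 25 points, or 2.29%. Of the 24 sites, 22 had a mean between 20% and 80%, 21 were intronic and 1 lay within 1 kb of a start.

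At 36 of the 805 sites (4.47%) the groups did not overlap, against 3.99% of all sites. Of these, 29 were lower in ENR (3.60% of the 805, against 2.34% of all) and 7 higher (0.870%, against 1.65%). An unadjusted limma p under 0.05 was found at 21 of the 589 sites that varied (3.57%), against 2.68% of all. None passed an adjusted p under 0.05 with a difference over 25 points, as for all sites (0.0%, smallest adjusted p = 0.852). These shares were not tested against the whole table. The site with the lowest p among those over 25 points without overlap in Runx1, at position 92642359 of chromosome 16, had 56.5%, 74% and 40% in STD and 100%, 85.1% and 100% in ENR. Its unadjusted limma p was 0.00602. In Runx3, the corresponding site was position 135147642 of chromosome 4, with 28%, 0% and 4.76% in STD and 31.2%, 80% and 93.3% in ENR, and the unadjusted limma p was 0.0224. The lowest ENR value there was only just above the highest STD value.

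**Figure D5:**
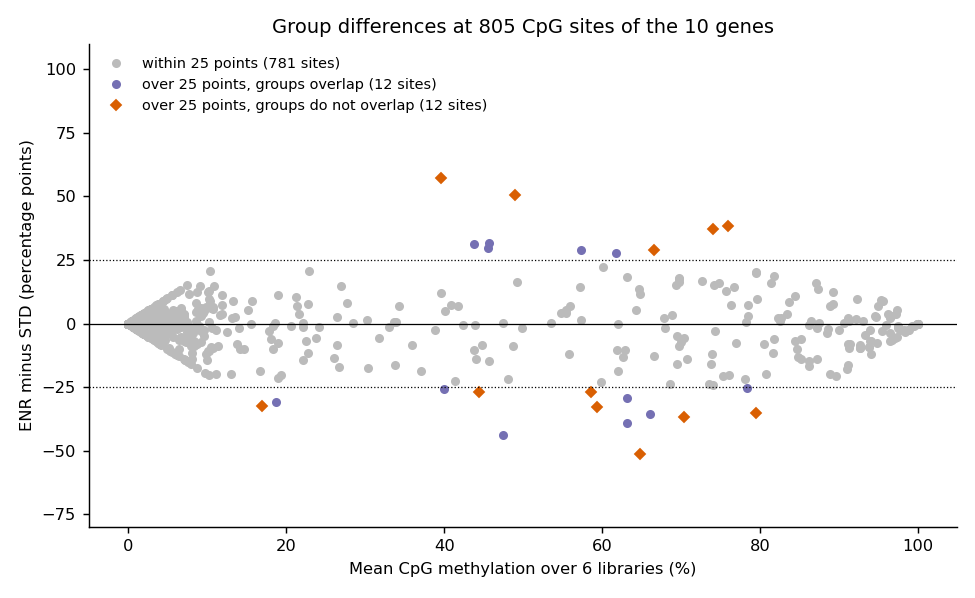
Difference of group means (ENR minus STD, percentage points, y axis) against mean CpG methylation over 6 libraries (%, x axis) for the 805 sites. Grey points are within 25 points (dotted lines), purple points are the 12 sites over 25 points whose groups overlap, and orange diamonds are the 12 whose groups do not overlap. Of the 24 sites over 25 points, 22 lie between 20% and 80%, in both directions.

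The precision at single sites was described by CpGs with both strands measured. At 108 such CpGs the strands of a library differed by 6.78 percentage points on average. The mean was 3.82 percentage points at the 86 CpGs with a level below 10% and 19.3 at the 20 CpGs between 10% and 90%. The strands of 1 CpG are covered by different reads, and the limit used for a difference between groups was 25 points.

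Neighbouring sites were then pooled. Of the 66 tiles of 1 kb with at least 3 sites that overlapped the genes, 6 had an unadjusted limma p under 0.05 (9.09%), against 3.98% of all tiles, and 0 passed adjustment. Of the 6, 5 were lower in ENR (7.58% of the 66, against 2.5% of all). The count was 3 (4.55%) without ENR replicate 2, against 4.63% of all tiles in that fit, and also 3 without STD replicate 1, against 3.48%. Covered stretches did not overlap between groups at 11 of 62 (17.7%), against 8.78% of all. Of these, 9 were lower in ENR (14.5%, against 5.33% of all) and 2 higher (3.23%, against 3.45%). None of these shares was tested against the whole table. The tiles and stretches hold the same sites, so the counts are not independent of each other, and 1 of the 11 stretches was the island of Csrnp1.

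The 10 genes were set beside 56 other microglial and myeloid genes, of which 46 had at least 3 sites. Of these, 30 were lower and 16 higher in ENR, with a median difference of -0.774 percentage points. None had an adjusted limma p under 0.05, and 0 had an unadjusted one. Groups did not overlap at 3 of the 46 (6.52%, against 8.46% of all genes), all lower in ENR (against 5.42% of all genes), among them the kinase Syk and the purine receptor P2ry12. The lowest p-values among those lower in ENR belonged to Olfml3 and to Alox5ap, which presents arachidonic acid to the Alox5 enzyme. Alox5ap had 18.5%, 27.8% and 20.5% in STD and 8.99%, 21.3% and 12.6% in ENR, with overlap, and its unadjusted limma p was 0.0797. Olfml3 had 4.10% ± 1.38 in STD and 1.69% ± 1.81 in ENR (SD, n = 3 each). Among those higher in ENR they belonged to Coro1a, Irf7 and Slc2a5, with unadjusted limma p of 0.134, 0.271 and 0.353.

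Other cell types were described by the same measure. Granule neuron markers were lower in ENR at 8 of 10 genes (median difference -0.432 percentage points), astrocyte markers at 5 of 6 (-2.83), oligodendrocyte markers at 4 of 6 (-1.17), endothelial markers at 2 of 4 (0.153) and T cell and blood markers at 2 of 3 (-0.600). An unadjusted limma p under 0.05 was found for 1 of these genes, Mobp of oligodendrocytes, and no adjusted one. Across all genes, 3.86% had an unadjusted p under 0.05. Mobp had 88.7%, 86.9% and 84.9% in STD and 74.6%, 81.7% and 59.3% in ENR, so that ENR replicate 3 was the lowest. Promoter levels had a median of 2.17% for granule neuron markers (9 covered), 2.66% for the microglial and myeloid list (36), 24.0% for astrocyte markers (5), 8.17% for oligodendrocyte markers (3), 5.28% for endothelial markers (2) and 80.7% at the 1 covered T cell and blood promoter. All promoters had a median of 2.29%, so the low granule neuron level does not by itself mark the tissue, and a methylation level is not a transcript level. The part of cell composition in the differences above was not tested.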

How the data were processed

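RRBS was made from dentate gyrus DNA of 3 STD and 3 ENR mice. The authors trimmed reads, removed filled-in cytosines, aligned the reads to mm10 with Bismark and, with methylKit, kept cytosines with at least 10 reads. Submitters' processing notes list Bismark 0.16.1, Trim Galore 0.4.0, cutadapt 1.8.1 and methylKit 1.5.2, whereas the study's methods name later versions of Bismark and Trim Galore, so the versions used are uncertain. The deposited table gives percent methylation at 890041 CpG cytosines in 6 libraries, with no read numbers. Deeply and shallowly read sites thus had equal weight. The study tested reads per cytosine, which percentages do not allow, so only the spread between mice entered the tests. The labels name a pair of DNA isolation kits without tying them to libraries. No column of per-library values was left unused.

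Sites were assigned with GENCODE M21. Genes with at least 3 sites, promoters (within 1 kb of any transcription start), 1 kb tiles and single sites were compared by limma 3.58.1 (R 4.3.3, eBayes with a variance trend) on percentages, with Benjamini-Hochberg adjustment over all features. The fits of gene means and single sites were tested on simulated data. Large shifts were mostly recovered in gene means, but at single sites only where very large and in many sites. Shifts as small as the gene differences seen here were not simulated, so that a count of 0 adjusted calls at genes or sites says little. Single values were compared by two-sided exact permutation over 20 regroupings. Stretches were runs of at least 3 sites at most 200 bases apart. Sequences and promoter windows came from RefSeq (GRCm38.p6) and were printed for stretches that the results turn on. The genes and lists were chosen with earlier results of these data known. All 10 genes were described; the single site named per gene had the lowest limma p among sites over 25 points without overlap, tiles were named at an unadjusted p under 0.05, stretches at starts, at the highest and lowest level and without overlap, and other myeloid genes by at most 3 of the lowest p-values in each direction, 1 of which is not reported here. The single cytosines given at the distal Runx1 start and in the first exon of Alox5 did not follow the rule for single sites. These, the pairs of sites in Inpp5d and stretches without overlap were named after their values were seen. Sequence of Csf1r is not shown.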

Additional observations from a re-analysis of the deposited data

How the results depend on the processing

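No gene, promoter, tile or site of the 10 genes passed adjustment under any of the 36 other settings of the limma fits, which covered the arcsine scale, the variance model, quantile normalization, averaged strands, 2 kb tiles, the replicate block and each library left out in turn (0 calls in each, lowest and highest 0). With the replicate block, an unadjusted p under 0.05 was found at 23 of 589 sites (3.90%, against 2.57% of all sites), 2 of 10 genes (5.02% of all), 7 of 66 tiles (10.6%, against 4.55% of all) and 1 of 5 promoters (4.78% of all), and 0 passed adjustment. No source says that the numbers pair the mice, and deviations of same-numbered libraries had r of 0.0552, 0.0319 and 0.125, so that the block was not used. The adjusted p of the Alox5 promoter lay between 0.258 (without STD replicate 2) and 0.999 (without STD replicate 1), and was 0.942 with the replicate block.

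Sites over 25 points numbered 42 at a limit of 20 points and 4 at 40, and between 25 and 38 with 1 library left out, 38 being without ENR replicate 1. They numbered 33 without both libraries numbered 3, an alternative chosen after seeing the data, as were RefSeq bounds and the exclusion of sites in other genes.

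Of 133 other settings of the gene differences, 119 kept the direction, 12 reversed it and 2 gave 0 (medians over sites of Cx3cr1 and Tgfb1). Reversed were Irf8 as a median over sites (1.03), Runx1 and Runx3 within 1 kb of a start (1.21 and 0.698), Runx1 at sites of 20% to 80% (5.06) and Cx3cr1 without both libraries numbered 3 (0.511). With 1 library left out, or both numbered 3, Csf1r lay between -3.68 and 13.9, Runx1 between -1.70 and 0.476, Cx3cr1 between -1.81 and 0.531 and Inpp5d between -10.9 and 4.15. The other 6 genes kept their direction, with Spi1 between 2.03 and 21.8, Irf8 between -3.02 and -0.607, Runx3 between -1.19 and -0.306, Tgfb1 between -1.84 and -0.803, Tmem119 between -16.5 and -4.82 and Alox5 between -6.06 and -4.34. The causes were not tested. A higher coverage minimum was not run, because the table gives no reads per site, and depth therefore limits every single-site value to an unknown degree.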
